A study of Homo sapiens with 18 samples.

Results

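The 17-beta hydroxysteroid dehydrogenases (HSD17B) are oxidoreductases named for the conversion of estrogens and androgens at carbon 17. Expression of 10 of these genes, HSD17B1, HSD17B2, HSD17B4, HSD17B6, HSD17B7, HSD17B8, HSD17B10, HSD17B11, HSD17B12 and HSD17B13, was examined among 19720 genes named on the array. They were chosen by name, in view of a lower HSD17B8 and a higher HSD17B6 signal after 5-fluorouracil (5-FU), so their 5-FU values are given as a description without a test. The arrays carry 13 probes for the 10 genes, and 9 genes could be tested, having in some group 3 arrays with signal well above background. The exception was HSD17B13.

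Cells were Huh1 and Huh7, established human hepatocellular carcinoma (HCC) lines. EpCAM+ cells, the tumor-initiating fraction in the study, were profiled from each line after 48 hours. They had no drug (control), 0.1 µM disulfiram (DSF, an inhibitor of aldehyde dehydrogenase) or 1 µM 5-FU, an antimetabolite. The paper's account of the arrays does not state whether the sort came before or after the drug. Each of the 6 groups had 3 arrays, from independent experiments according to the methods, which makes 18 arrays. In the methods DSF is written with copper chloride, and what the control cells received is not stated, so copper and DSF cannot be told apart. All cells of a group came from a single line, and every sample had passed the EpCAM sort.

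Despite the shared name, members of the family work in separate compartments and pathways. HSD17B1 reduces estrone to estradiol, HSD17B2 oxidizes estradiol and testosterone to their weaker ketones, and HSD17B6 oxidizes 3-alpha-hydroxy androgens and retinol. HSD17B7 is the 3-ketosteroid reductase of cholesterol synthesis, HSD17B4 the bifunctional protein of peroxisomal beta-oxidation, and HSD17B12 the 3-ketoacyl reductase of long-chain fatty acid elongation. In mitochondria, HSD17B8 forms with CBR4 the 3-ketoacyl reductase of fatty acid synthesis, and HSD17B10 acts in isoleucine breakdown and as a subunit of RNase P. HSD17B11 and HSD17B13 are lipid droplet proteins.

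The 200 bases upstream of the start of HSD17B8 and of HSD17B7 are shown 5′ to 3′ on the gene's own strand (RefSeq, GRCh38.p14). The reference used held no such window for HSD17B1, HSD17B2, HSD17B6 or HSD17B12. Capitals mark matches on either strand to the CCAAT box (CCAAT) or the GC box (GGGCGG), and the matched letters do not overlap.
HSD17B8, chr6:33204455-33204654, plus strand: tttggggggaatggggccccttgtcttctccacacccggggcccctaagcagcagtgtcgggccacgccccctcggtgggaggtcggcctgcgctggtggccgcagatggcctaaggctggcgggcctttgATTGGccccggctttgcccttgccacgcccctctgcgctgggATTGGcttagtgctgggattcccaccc
HSD17B7, chr1:162790502-162790701, plus strand: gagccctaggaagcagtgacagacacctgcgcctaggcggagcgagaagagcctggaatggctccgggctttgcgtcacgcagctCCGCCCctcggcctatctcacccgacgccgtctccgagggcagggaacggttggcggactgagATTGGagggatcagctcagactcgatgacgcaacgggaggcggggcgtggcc
The HSD17B8 window holds 2 CCAAT boxes on the opposite strand, which begin 69 and 27 bases before the start. The HSD17B7 window holds 1 CCAAT box (52 bases before the start) and 1 GC box (115 bases before it). Among 35116 windows of the same length, 28.0% hold CCAAT and 40.1% hold GGGCGG on either strand. G and C make up 68.5% of the HSD17B8 window and 66.5% of the HSD17B7 window, against a median of 59.0% over all windows. These matches are letters in a window and are not measured binding sites.

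Levels are given as normalized log2 signal, the log2 of the spot intensity minus the 75th percentile of the same array, so that a negative level lies below that percentile. A probe's level says nothing against another probe's, and only differences within a probe are compared. Differences were tested with limma over all 29894 probes above background, with Benjamini-Hochberg adjustment. Counts of genes use the brightest tested probe of each. A change was called at an adjusted p under 0.05. Comparisons with the same control arrays are not independent of each other, which applies to DSF, 5-FU and the 2 lines' controls alike. The controls of the 2 lines lay on different slides, so differences between untreated Huh7 and Huh1 cannot be told apart from the slide. The smallest p of an exact rank test on 3 and 3 arrays is 0.1, and every call therefore depends on limma's estimate of the spread in the 6 groups.

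Between 59.9% and 71.1% of probes per array were well above background (median 64.6%). The 8 liver cell markers and the 7 epithelial and progenitor markers, EPCAM among them, were above background on all 18 arrays, while of the blood, endothelial and stromal markers 3 of 5, 2 of 4 and 0 of 5 were, with HBB and KDR above it on 0 arrays. The summed liver markers were lower on DSF arrays than on control arrays (8.82 to 8.93 against 9.23 to 9.34 in Huh1, and 9.53 to 9.72 against 9.82 to 9.86 in Huh7, log2), although FGB in both lines and AFP in Huh7 had higher means with DSF. With 5-FU the liver sum was 9.04 to 9.33 in Huh1 and 9.94 to 10.1 in Huh7. The epithelial and progenitor sum was lower with DSF in Huh1 (8.19 to 8.31 against 8.39 to 8.48) and higher in Huh7 (8.57 to 8.59 against 8.45 to 8.5). In Huh7 only KRT8 and KRT18 had higher means with DSF, while EPCAM, KRT19, CDH1, GPC3 and SOX9 had lower ones. In Huh1 KRT19 and SOX9 had higher means, against the lower sum. In the remaining lists the summed log2 level ran, over the groups, from -1.07 to 1.30 for blood, from -1.98 to -0.68 for endothelial and from -5.15 to -1.66 for stromal markers. The stromal sum was highest with 5-FU in Huh7 (-2.09 to -1.66, beside -3.35 to -3.12 in its controls). The part of these markers in the results was not tested. The 75th percentile itself, measured against 7 spike-in probes, was 0.83 (Huh1) and 0.98 (Huh7) higher on the log2 scale with 5-FU than without drug, and differed by 0.13 and -0.18 with DSF. With spike-in scaling, the overall median change of genes moved from -0.03 to 0.80 after 5-FU in Huh1 and from -0.01 to 0.98 in Huh7, and from -0.02 to 0.11 and from 0.04 to -0.14 after DSF. Scaled on the array median, it moved to -0.19 after DSF in Huh1. All changes below are therefore relative to the bulk of the array. The share of called genes that were higher depended on this choice, being 50.1% after DSF in Huh1 but 30.9% with median scaling and 70.2% with spike-ins. In Huh7 it was 54.7% after DSF but 29.8% with spike-ins. For 5-FU the shares were 47.1% (Huh1) and 51.2% (Huh7), but 98.2% and 95.5% with spike-ins, and 36.2% in Huh1 with another background correction (normexp). For the difference between the lines' DSF responses the share was 52.6%, with 67.8% under median and 16.7% under spike-in scaling.

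Exposure to DSF lowered HSD17B6 and HSD17B8 in both lines, lowered HSD17B7 in Huh7, and moved the other members by less than 0.5 on the log2 scale in the brightest probe. In Huh1, 4 of the 9 tested genes were called (HSD17B1 higher, and HSD17B4, HSD17B6 and HSD17B8 lower). Of all genes 52.7% were called there, 26.4% higher and 26.3% lower. By its brightest probe HSD17B7 was not called in Huh1, but it was called lower without Huh1 DSF replicate 3 (-0.39, adjusted p = 0.00896). In Huh7, 8 of the 9 were called (HSD17B1 and HSD17B10 higher, and HSD17B2, HSD17B4, HSD17B6, HSD17B7, HSD17B8 and HSD17B12 lower), against 53.2% of all genes, 29.1% higher and 24.1% lower. Fewer cells of a kind and less RNA per cell cannot be told apart in such bulk samples. The median change of the 9 genes was -0.15 in Huh1 and -0.27 in Huh7, beside medians of -0.02 and 0.04 over all genes. The count in Huh1 is therefore near the background, and the count in Huh7 is above it. With the slide as a block the Huh7 count falls to 3. The share of all genes called in that fit was not taken, so the 3 has no background beside it. Of the 3 Huh7 DSF arrays, 2 lay on a slide of their own, so that slide and DSF cannot be told apart for them, and only replicate 1 shared a slide with its controls.

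**Figure D1:**
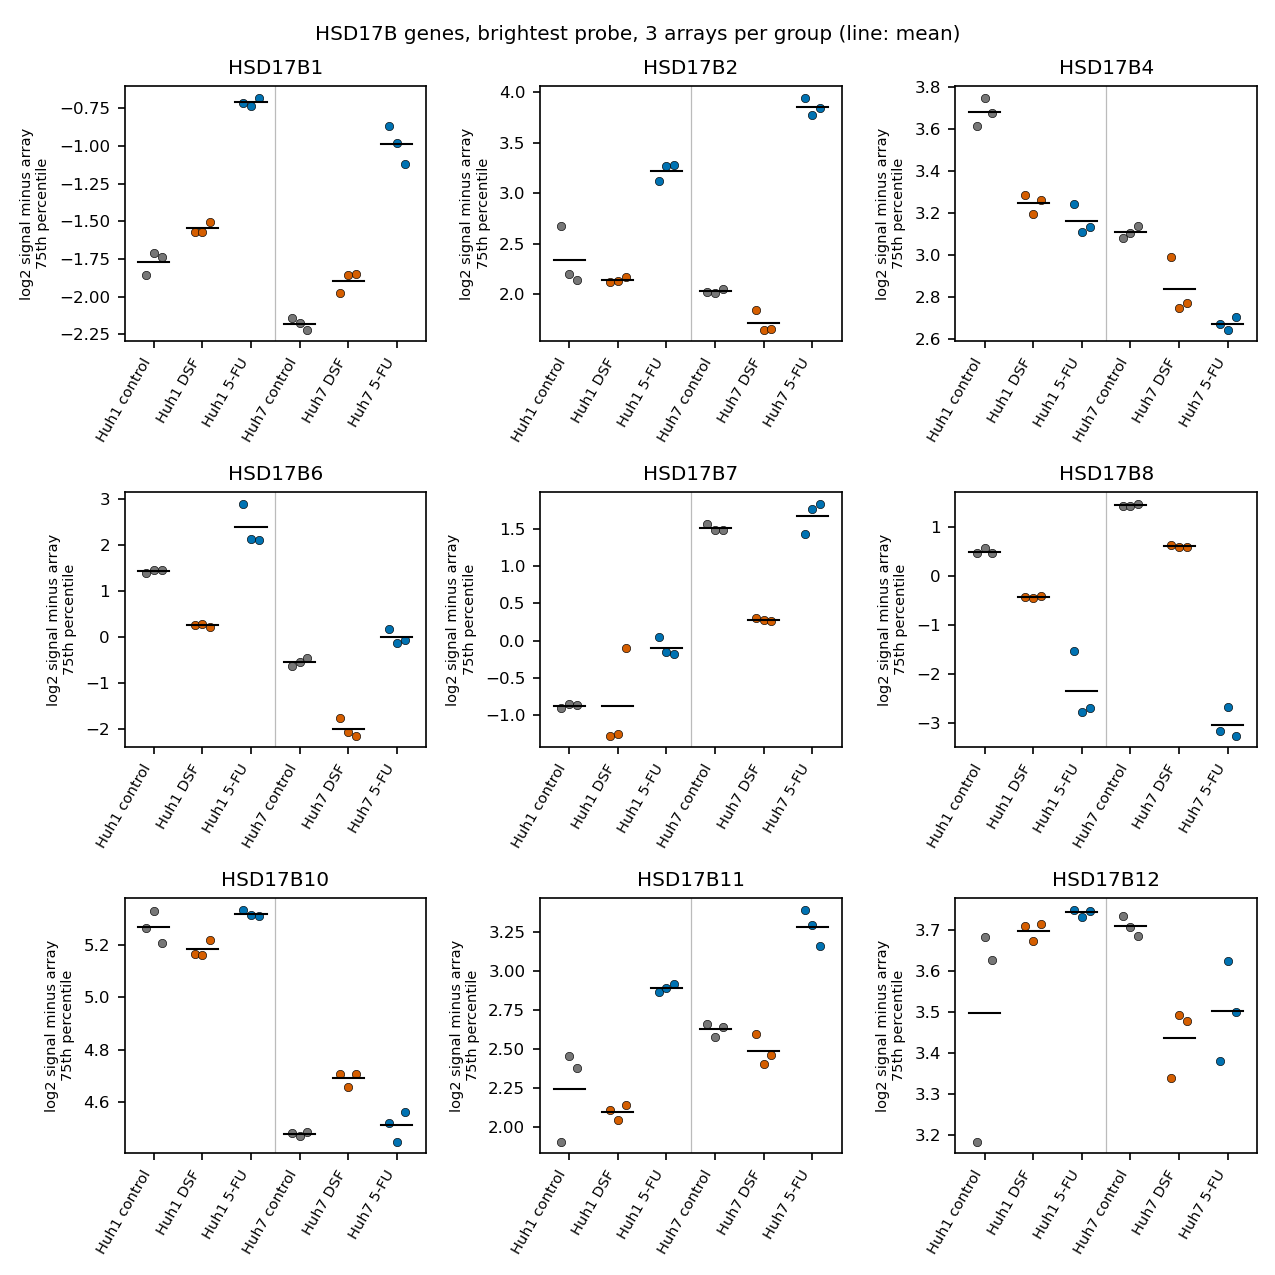
Normalized log2 signal (log2 intensity minus the array's 75th percentile, vertical axis) of the brightest probe of each of the 9 tested HSD17B genes on 18 arrays, in 6 groups of 3 arrays on the horizontal axis. Points are arrays in the order of replicate 1 to 3 and lines are group means. The 3 DSF arrays of each line lie below their controls for HSD17B6 and HSD17B8, and for HSD17B7 replicate 3 of Huh1 DSF stands at -0.09, above the other 2.

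Among the sex steroid and retinoid enzymes, HSD17B6 had the largest DSF change of the 9 brightest probes in each line. On the Huh1 control arrays its level was 1.38, 1.45 and 1.44, and on the Huh1 DSF arrays it was 0.27, 0.28 and 0.20. On the Huh7 control arrays it was -0.62, -0.54 and -0.46, and with DSF -1.75, -2.07 and -2.15. In each line every DSF array lay below every control array. The change was -1.17 ± 0.17 (SE) in Huh1, a 2.26-fold fall (adjusted p = 6.05e-05), and -1.45 ± 0.17 in Huh7, a 2.74-fold fall (adjusted p = 9.91e-06). Arrays on the same slide differed by -1.15 in Huh1 (2 DSF arrays) and -1.22 in Huh7 (1 DSF array). The response in Huh7 minus that in Huh1 was -0.28 ± 0.24 and was not called (adjusted p = 0.372). Without drug, HSD17B6 was 3.90-fold lower in Huh7 than in Huh1 (-1.96 ± 0.17, adjusted p = 7.04e-08).

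With 5-FU, HSD17B6 lay on the other side of its controls. Its level on the Huh1 5-FU arrays was 2.89, 2.13 and 2.11, and on the Huh7 5-FU arrays 0.17, -0.14 and -0.06. All 3 arrays lay above the control arrays in each line, and replicate 1 was the highest in both. The differences from control were 0.95 in Huh1 and 0.53 in Huh7, or 1.78 and 1.51 when scaled on spike-ins. Without replicate 1 of Huh1 5-FU the difference there was 0.69. These values were used to choose the family and carry no test.

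HSD17B1 had a small rise after DSF. Its level was -1.86, -1.71 and -1.74 on Huh1 control arrays and -1.57, -1.57 and -1.51 with DSF. In Huh7 it was -2.15, -2.17 and -2.22 on control arrays and -1.98, -1.86 and -1.85 with DSF. The groups did not overlap in either line, as was so in the same direction for 32.6% of all genes in Huh1 and 37.0% in Huh7 (35.3% and 32.4% for lower DSF arrays). The change was 0.22 ± 0.07 in Huh1 (adjusted p = 0.0151), with 0.28 ± 0.07 for Huh7 (adjusted p = 0.00318). The call in Huh1 was lost under median scaling (0.05, adjusted p = 0.646), quantile normalization (0.14, adjusted p = 0.108) and spike-in scaling (0.35, adjusted p = 0.060). It was also lost without Huh1 DSF replicate 3 or Huh1 control replicate 1 (0.20 and 0.18). In Huh7 it was lost with spike-in scaling (0.11, adjusted p = 0.590) and with the slide as a block (0.20, adjusted p = 0.125). On 5-FU arrays HSD17B1 lay at -0.71, -0.73 and -0.68 in Huh1 and at -0.87, -0.98 and -1.12 in Huh7, above all control arrays, by 1.06 and 1.19. Of all genes, 29.0% in Huh1 and 36.6% in Huh7 had every 5-FU array above every control array, and 33.6% and 35.3% had every one below, from which nothing is read for members.

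HSD17B2, which works in the opposite direction to HSD17B1, was at 2.67, 2.19 and 2.14 on Huh1 control arrays and at 2.11, 2.13 and 2.17 with DSF, where the groups overlapped (-0.20 ± 0.11, adjusted p = 0.168). Replicate 1 of the Huh1 control stood apart from the others, and without it the change was -0.03. With median scaling the Huh1 change was called (-0.37, adjusted p = 0.0179). In Huh7 the control arrays were at 2.02, 2.01 and 2.05 and the DSF arrays at 1.84, 1.65 and 1.66, and the fall of 0.31 ± 0.11 was called (adjusted p = 0.0338). That call was lost without Huh7 DSF replicate 2 or 3, or any of the 3 Huh7 control arrays, and with the slide as a block (-0.19, adjusted p = 0.442). HSD17B2 lay higher on 5-FU arrays, at 3.12, 3.27 and 3.28 in Huh1 and 3.95, 3.78 and 3.84 in Huh7, differences of 0.88 and 1.83 from control.

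Of the mitochondrial members, HSD17B8 fell after DSF and was far lower on 5-FU arrays. The control arrays were at 0.46, 0.57 and 0.46 in Huh1 and at 1.42, 1.43 and 1.47 in Huh7. With DSF they were at -0.44, -0.45 and -0.42 and at 0.62, 0.59 and 0.60. In both lines all DSF arrays lay below all control arrays and the replicates lay close together. The fall was 0.93 ± 0.24 in Huh1, or 1.90-fold (adjusted p = 0.00597), and 0.84 ± 0.24 in Huh7, or 1.79-fold (adjusted p = 0.0113). Scaled on spike-ins the Huh1 fall was still called, and in Huh7 only the fit with the slide as a block gave no call (-0.82, adjusted p = 0.124). The response did not differ detectably between lines (0.09 ± 0.34, adjusted p = 0.851). Control cells of Huh7 had a 1.93-fold higher level than those of Huh1 (0.95 ± 0.24, adjusted p = 0.00279), a call lost with the slide as a block (0.92, adjusted p = 0.117).

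With 5-FU, HSD17B8 was at -1.54, -2.78 and -2.70 in Huh1 and at -3.17, -2.68 and -3.26 in Huh7, and the probe was well above background on all 18 arrays. Replicate 1 of Huh1 5-FU was closer to the controls than the other 2 arrays. The mean lay 2.84 below control in Huh1 (7.14-fold) and 4.48 below it in Huh7 (22.3-fold). Without Huh1 5-FU replicate 1 the Huh1 difference was -3.24. Scaled on spike-ins the differences were -2.01 and -3.49. The SE that limma gave for HSD17B8 (0.24 for every comparison against control) is shared by all groups, so the scatter of the 5-FU arrays enters it.

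HSD17B10, the subunit of RNase P, was at 5.26, 5.33 and 5.21 on Huh1 control arrays and at 5.17, 5.16 and 5.22 with DSF, which overlapped (-0.08 ± 0.05, adjusted p = 0.189). That change was called with median scaling (-0.26, adjusted p = 0.00835) and turned to 0.05 with spike-ins. In Huh7 the control arrays were at 4.48, 4.47 and 4.49 and the DSF arrays at 4.71, 4.66 and 4.71, a rise of 0.21 ± 0.05 (adjusted p = 0.00325) that was lost under quantile normalization (0.11, adjusted p = 0.102) and spike-in scaling (0.03, adjusted p = 0.873). Its 5-FU differences were 0.05 in Huh1 and 0.03 in Huh7, or 0.88 and 1.01 with spike-in scaling. Its level was 1.72-fold lower in Huh7 control cells than in Huh1 control cells (-0.79 ± 0.05, adjusted p = 2.21e-09).

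**Figure D2:**
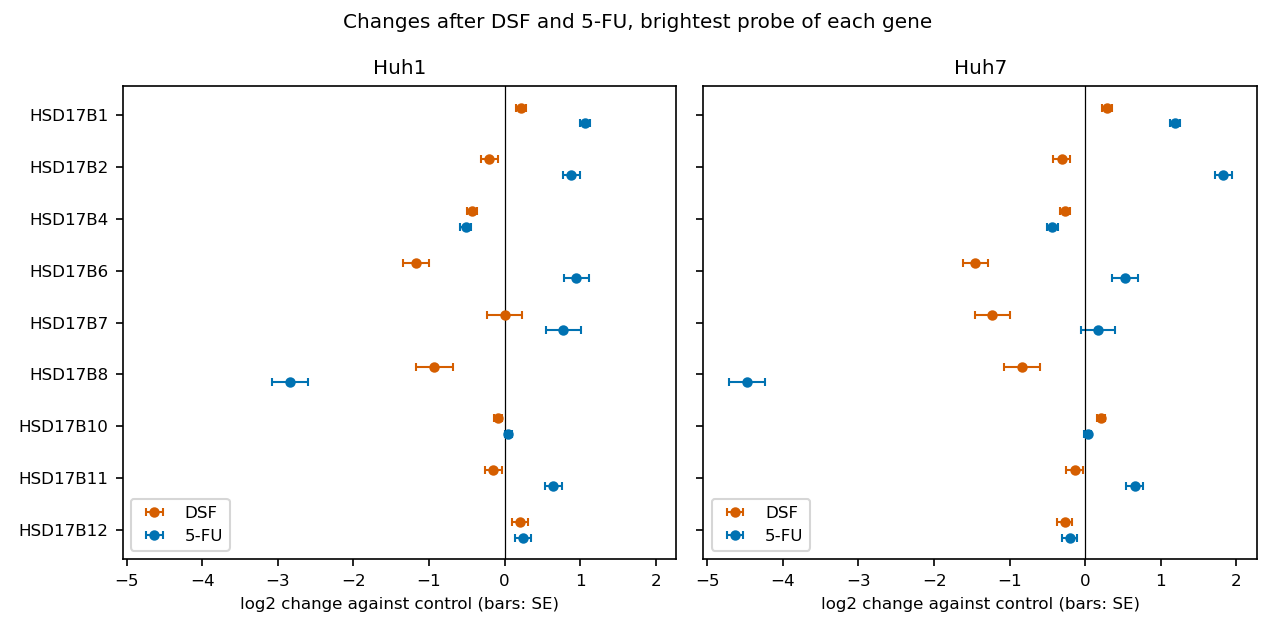
Log2 change against control (horizontal axis, bars are the standard error from limma) of the 9 tested HSD17B genes after DSF (orange) and 5-FU (blue) in Huh1 (left) and Huh7 (right), for the brightest probe of each gene. HSD17B8 lies below 0 with both drugs, at -4.48 with 5-FU in Huh7, and HSD17B6 lies on opposite sides of 0 with DSF and 5-FU. With spike-in scaling the 5-FU points of HSD17B4 lie above 0, at 0.31 and 0.55.

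HSD17B7 was measured by 3 probes, and all 3 fell in Huh7 after DSF. The probe A_23_P11859 was at 1.5, 1.52 and 1.55 on Huh7 control arrays and at 0.39, 0.37 and 0.35 on DSF arrays, a 2.22-fold fall (-1.15 ± 0.09, adjusted p = 2.61e-07). The brightest probe, A_33_P3225487, fell from 1.56, 1.48 and 1.48 to 0.30, 0.27 and 0.26 (-1.23 ± 0.23, adjusted p = 5.62e-04). The third, A_33_P3276369, fell by 1.19 ± 0.10 (adjusted p = 5.93e-07). Within the slide shared with controls, which held 1 Huh7 DSF array, the differences were -1.13, -1.21 and -1.20. The fall was as large on that array.

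In Huh1 the 3 HSD17B7 probes disagreed. A_23_P11859 went from -0.83, -0.85 and -0.85 on control arrays to -1.27, -1.30 and -1.39 with DSF (-0.47 ± 0.09, adjusted p = 6.61e-04). A_33_P3225487 went from -0.91, -0.85 and -0.87 to -1.28, -1.25 and -0.09, a change of 0.00 ± 0.23 (adjusted p = 0.998), and replicate 3 stood above every control array on this probe and on neither of the others. Without that array its change was -0.39 (adjusted p = 0.00896). A_33_P3276369 changed by -0.24 ± 0.10 and was not called (adjusted p = 0.0691), although its DSF arrays (-2.31, -2.30 and -2.37) lay below all control arrays (-2.11, -2.06 and -2.08). Counted by its brightest probe, HSD17B7 is not among the genes called in Huh1.

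The DSF fall of HSD17B7 was larger in Huh7 than in Huh1 by each probe. The difference between the lines' responses was -0.68 ± 0.13 (adjusted p = 8.25e-04) for A_23_P11859, -1.23 ± 0.32 (adjusted p = 0.0078) for A_33_P3225487 and -0.95 ± 0.14 (adjusted p = 1.55e-04) for A_33_P3276369. Without Huh1 DSF replicate 3 the middle value was -0.84. Untreated Huh7 had a 5.17-fold, 5.22-fold and 5.12-fold higher level than untreated Huh1 by the 3 probes in the same order (adjusted p = 7.60e-12, 2.38e-07 and 3.06e-11). On 5-FU arrays the brightest probe lay 0.78 above control in Huh1, at 0.04, -0.16 and -0.18, and 0.17 above it in Huh7, where the groups overlapped and leaving out single arrays gave 0.09 to 0.29. The other probes lay above control by 0.76 and 0.69 in Huh1 and by 0.27 and 0.06 in Huh7, and A_23_P11859 was the probe with no overlap in Huh7. A near copy of the gene, HSD17B7P2, has no probe named for it, and a share of its transcripts in these signals was not tested.

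**Figure D3:**
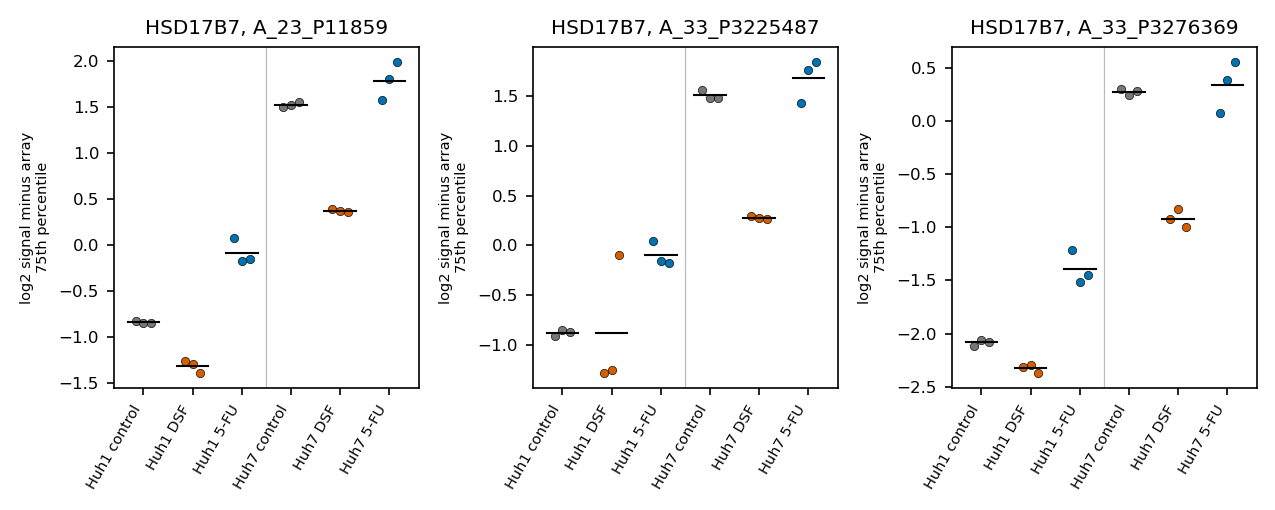
Normalized log2 signal (vertical axis) of the 3 HSD17B7 probes, a panel each, on 18 arrays in 6 groups (horizontal axis). Points are arrays in the order of replicate 1 to 3 and lines are group means. All panels show lower DSF arrays than control arrays in Huh7, and Huh1 DSF replicate 3 departs from its group in the middle panel, at -0.09.

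The enzymes that work beside HSD17B7 between squalene and cholesterol were lower as well, a pattern already known from earlier results of these arrays. After DSF, 11 of 11 were lower in Huh1 and 10 of 11 in Huh7, and 0 were higher, with median changes of -0.47 and -0.65. Scaled on spike-ins the counts were 6 and 10 lower and 0 higher. In Huh7 the largest falls were those of MSMO1, a C4-methyl sterol oxidase (from a mean of 4.28 to 2.59, -1.69 ± 0.05, adjusted p = 5.04e-12) and SC5D, a sterol desaturase (from -1.19 to -2.86, -1.67 ± 0.11, adjusted p = 4.34e-08). In Huh1 they were those of LBR, a sterol reductase of the nuclear envelope (-0.75 ± 0.07, adjusted p = 1.09e-06) and SC5D (-0.68 ± 0.11, adjusted p = 1.44e-04). NSDHL, which acts just before HSD17B7 in the removal of the C4 methyl groups, was the gene not called in Huh7 (-0.14 ± 0.07, adjusted p = 0.101). The HSD17B7 change in Huh7 lay between those of DHCR7 (-1.0 ± 0.08) and SC5D.

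HSD17B4, in peroxisomes, fell modestly after DSF in both lines. Its level went from 3.61, 3.75 and 3.67 to 3.29, 3.19 and 3.26 in Huh1 (-0.43 ± 0.07, adjusted p = 1.34e-04) and from 3.08, 3.11 and 3.14 to 2.99, 2.75 and 2.77 in Huh7 (-0.27 ± 0.07, adjusted p = 0.00476). No DSF array reached a control array of its line. Replicate 1 of Huh7 DSF, on the slide of its controls, was the highest of its group, and the within-slide difference was -0.12 (adjusted p = 0.301 with the slide as a block). In Huh1 the call was lost with spike-in scaling (-0.30, adjusted p = 0.152). On 5-FU arrays HSD17B4 was at 3.24, 3.11 and 3.13 in Huh1 and 2.67, 2.65 and 2.70 in Huh7, lower than control by 0.52 and 0.43, but higher by 0.31 and 0.55 when scaled on spike-ins.

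The other genes of peroxisomal beta-oxidation were lower after DSF in 11 of 14 cases in Huh1 and 8 of 14 in Huh7, with 0 higher in either line (medians -0.55 and -0.38). With spike-in scaling 7 and 8 were lower and 0 higher. EHHADH, the L-bifunctional protein that parallels HSD17B4, fell most in Huh1 (from -0.62 to -2.24, -1.62 ± 0.17, adjusted p = 4.39e-06), followed by AMACR, a racemase of branched acyl-CoA (-1.23 ± 0.18, adjusted p = 7.24e-05). In Huh7 CRAT, carnitine acetyltransferase, fell by 0.96 ± 0.12 (adjusted p = 2.12e-05). After 5-FU, 3 were higher and 6 lower in Huh1, while in Huh7 9 were higher and 2 lower, but 10 and 12 higher and 0 lower with spike-in scaling. ACOX2, the branched-chain oxidase, was higher in both (1.46 ± 0.24 and 1.89 ± 0.24, adjusted p = 2.03e-04 and 1.22e-05).

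For HSD17B12, the elongation enzyme, 2 probes were read. The brighter probe, A_23_P47377, was at 3.18, 3.68 and 3.63 on Huh1 control arrays and 3.71, 3.67 and 3.71 with DSF, which overlapped (0.20 ± 0.11, adjusted p = 0.139). Without Huh1 control replicate 2 this became a call (0.29, adjusted p = 0.0452), and without Huh1 control replicate 1 the value was 0.04. In Huh7 it went from 3.73, 3.71 and 3.69 to 3.34, 3.49 and 3.48 (-0.27 ± 0.11, adjusted p = 0.0459), a call that leaving out any of 13 of the 18 arrays removed. The second probe, A_33_P3335042, fell more in Huh7, from 0.67, 0.74 and 0.71 to 0.29, 0.18 and 0.20 (-0.48 ± 0.11, adjusted p = 0.00217). The lines' responses to DSF differed by -0.47 ± 0.15 (adjusted p = 0.0206) and -0.72 ± 0.15 (adjusted p = 0.00174) by these probes, and Huh1 control replicate 1, the lowest Huh1 array on both, entered both. Without it the first value was -0.32, and with median scaling that value was not called (-0.32, adjusted p = 0.134). With 5-FU the differences from control were 0.25 in Huh1 and -0.21 in Huh7 for the brighter probe, the latter 0.78 with spike-in scaling and the former 0.09 without Huh1 control replicate 1. For the second probe they were 0.31 and -0.30.

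Partners of HSD17B12 in fatty acid elongation were mostly lower after DSF. Of 11 tested, 6 were lower and 1 higher in Huh1, and 6 lower and 0 higher in Huh7 (medians -0.49 and -0.45). With spike-in scaling the counts were 4 lower and 1 higher, and 6 lower and 0 higher. ELOVL2, an elongase of polyunsaturated fatty acids, fell by 1.29 ± 0.16 in Huh1 (adjusted p = 1.39e-05), and HACD1, a dehydratase of the same cycle, by 0.73 ± 0.16 (adjusted p = 0.0015). In Huh7, ELOVL3, which was not well above background on the DSF arrays, was at least 3.74-fold lower (adjusted p = 8.61e-06), and ELOVL4 fell by 1.07 ± 0.39 (adjusted p = 0.0367), a call lost under quantile normalization.

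HSD17B11, on lipid droplets, did not change detectably with DSF. It was at 1.90, 2.45 and 2.37 on Huh1 control arrays and 2.10, 2.04 and 2.14 with DSF (-0.15 ± 0.11, adjusted p = 0.314), and at 2.66, 2.57 and 2.64 against 2.59, 2.40 and 2.46 in Huh7 (-0.14 ± 0.11, adjusted p = 0.327). The result in Huh1 turned on control replicate 1, without which the fall was 0.32 (adjusted p = 0.00423). On 5-FU arrays it lay at 2.86, 2.89 and 2.91 in Huh1 and 3.39, 3.29 and 3.16 in Huh7, above all control arrays, by 0.64 and 0.66. HSD17B13, its close relative known from hepatocyte lipid droplets, gave a signal well above background on 0 of 18 arrays, at levels between -8.66 and -6.63, and was not tested.

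Lipid droplet proteins as a list moved in both directions. After DSF, 4 of 11 were higher and 3 lower in Huh1, while in Huh7 3 were higher and 6 lower. With spike-in scaling 1 was higher in Huh7. The medians were -0.09 in Huh1, which became 0.04 with spike-in scaling, and -0.57 in Huh7. PLIN5, a perilipin that tethers mitochondria to droplets, rose by 1.55 ± 0.13 in Huh1 (adjusted p = 6.37e-07) and fell by 1.26 ± 0.13 in Huh7 (adjusted p = 4.6e-06). CIDEB, a protein of droplet and lipoprotein assembly, fell in both, by 1.37 ± 0.23 and 2.47 ± 0.23 (adjusted p = 2.42e-04 and 1.35e-06). After 5-FU, CIDEC, which promotes droplet fusion, was higher in both lines (1.28 ± 0.23 and 2.71 ± 0.23, adjusted p = 4.21e-04 and 2.22e-07).

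HSD17B8's partner CBR4, the other subunit of the mitochondrial 3-ketoacyl reductase, also fell after DSF. Its mean went from -0.03 to -0.88 in Huh1 (-0.86 ± 0.11, adjusted p = 2.24e-05) and from 1.38 to -0.07 in Huh7 (-1.46 ± 0.11, adjusted p = 1.82e-07). After 5-FU, CBR4 was not called in Huh1. It differed from control by -0.50 in Huh7, which turned to 0.49 with spike-in scaling. Of the 8 genes of mitochondrial fatty acid synthesis and lipoylation, 6 were lower and 1 higher in Huh1 and 4 lower and 3 higher in Huh7. Scaled on spike-ins it was 4 lower and 0 higher in each line. With 5-FU, LIAS, the lipoyl synthase, was lower in Huh7 by 1.27 ± 0.07 (adjusted p = 3.64e-09) and MECR, the enoyl reductase, by 0.86 ± 0.06 (adjusted p = 5.11e-08), where spike-in scaling lost the first call (-0.28) and turned the second (0.12). The list had 6 of 8 lower and 1 higher there, and 2 higher and 4 lower in Huh1, but 0 lower in either line with spike-in scaling.

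Partners of HSD17B10 in isoleucine breakdown and mitochondrial RNase P were lower after DSF in 8 of 10 cases in Huh1 with 0 higher, and in 3 with 1 higher in Huh7 (medians -0.58 and -0.12). Spike-in scaling gave 5 and 3 lower and 0 higher. ACADSB, the dehydrogenase of the branched-chain route, fell by 1.28 ± 0.19 in Huh1 (adjusted p = 8.78e-05) and by 0.56 ± 0.19 in Huh7 (adjusted p = 0.0267). DBT, a subunit of the branched-chain ketoacid complex, fell by 0.96 ± 0.12 and 1.12 ± 0.12 (adjusted p = 2.33e-05 and 6.50e-06). After 5-FU, 9 and 8 of 10 were lower and 0 higher, but with spike-in scaling 1 and 0 were lower and 4 higher in each line. Here the partners' medians after 5-FU were -0.55 and -1.03, while HSD17B10 differed from control by 0.05 and 0.03.

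The list of other steroid hormone enzymes did not move as a block. After DSF, 4 of 20 were higher and 9 lower in Huh1, while in Huh7 5 were higher and 4 lower. SULT2A1, the hydroxysteroid sulfotransferase, fell by 2.40 ± 0.25 in Huh1 (adjusted p = 3.22e-06) and SULT1E1, the estrogen sulfotransferase, by 1.98 ± 0.20 in Huh7 (adjusted p = 2.70e-06). The largest called DSF change in Huh7 was a rise, that of SRD5A2 (2.12, a call lost with normexp). SRD5A2 rose by 1.24 in Huh1. After 5-FU 13 of 20 were higher and 4 lower in Huh7, against 6 and 2 in Huh1. With spike-in scaling it was 18 and 2 in Huh7 and 16 and 0 in Huh1, and with normexp 5 higher and 7 lower in Huh1. UGT2B15, a glucuronosyltransferase of androgens, was higher with 5-FU in Huh1 (2.30 ± 0.22, adjusted p = 1.72e-06) and at least 8.42-fold higher in Huh7, where control arrays were not well above background (adjusted p = 1.89e-08). AKR1D1 had the largest called 5-FU change in Huh7 (3.82). Among 9 retinol dehydrogenases, DSF left 2 higher and 4 lower in Huh1, and in Huh7 2 higher and 3 lower, with spike-in counts of 2 and 2, and 0 and 3. RDH5 fell in both lines (-1.29 ± 0.10 and -1.02 ± 0.10, adjusted p = 3.70e-07 and 3.29e-06), and DHRS3, a retinal reductase, rose by 1.16 ± 0.09 in Huh1 (adjusted p = 2.37e-07). RDH12 had the largest called change in Huh7 (-1.40).

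Over the 8 pathway lists together, 94 of 105 genes were tested. After DSF 12 were higher and 58 lower in Huh1, while in Huh7 14 were higher and 44 lower. With spike-in scaling, DSF gave 11 higher and 38 lower in Huh1, while Huh7 had 6 and 44. With 5-FU, Huh1 had 27 higher and 37 lower, and Huh7 35 higher and 32 lower, but 67 and 1, and 72 and 3, with spike-in scaling. The shares of all genes called were those given for DSF above, and 54.9% (25.9% higher and 29.1% lower) and 63.5% (32.5% higher and 31.0% lower) for 5-FU in Huh1 and Huh7. In Huh1, 6 of the 9 HSD17B genes had every 5-FU array above every control array and 2 had every one below. In Huh7 the counts were 4 and 3, beside the shares of all genes given above for such arrays. Nothing is read from these counts because the values chose the family. The median 5-FU difference of the 9 genes was 0.64 in Huh1 and 0.17 in Huh7.

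Further enzymes with 17-beta activity on the array were HSD17B3, HSD17B14 and AKR1C3. AKR1C3, an aldo-keto reductase that makes testosterone, was at 8.16, 8.15 and 8.05 on Huh1 control arrays and at 2.66, 2.53 and 2.59 on those of Huh7 (-5.53 ± 0.25, adjusted p = 4.25e-11). After DSF it rose in Huh7 to 4.0, 4.6 and 4.57 (1.79 ± 0.25, adjusted p = 4.57e-05), and in Huh1 it was at 7.79, 7.87 and 7.82 (-0.30 ± 0.25, adjusted p = 0.359). The lines' responses differed by 2.09 ± 0.35 (adjusted p = 3.32e-04). The rise in Huh7 was shared by AKR1C1 (1.33) and AKR1C4 (1.66), and shared signal between these probes was not tested. With 5-FU, AKR1C3 was lower in Huh7 by 1.52 ± 0.25 (adjusted p = 1.03e-04), or by 0.54 with spike-in scaling. In Huh1 its 5-FU change was -0.25 ± 0.25 (adjusted p = 0.433). HSD17B14 rose after 5-FU, from -1.14, -0.44 and -0.60 to 1.13, 0.90 and 0.85 in Huh1 (1.69 ± 0.16, adjusted p = 1.18e-06), and by 0.40 ± 0.16 in Huh7 (adjusted p = 0.0404, lost under median scaling). After DSF it changed by 0.42 ± 0.16 in Huh1 (adjusted p = 0.0400), a call lost under quantile normalization and median scaling, and by 0.16 ± 0.16 in Huh7 (adjusted p = 0.431). HSD17B3, known from the testis, was lower after 5-FU by 0.96 ± 0.18 and 1.91 ± 0.18 (adjusted p = 4.77e-04 and 4.71e-07), and with spike-in scaling by 0.13, no longer called, in Huh1.

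Of the 6 neighbors of HSD17B8 on chromosome 6, none was called lower after DSF in both lines, and 1 was called lower in each. They were VPS52 in Huh1 (-0.36 ± 0.08, adjusted p = 0.00287, lost with spike-in scaling, beside 0.05 ± 0.08 in Huh7) and SLC39A7, the gene before HSD17B8 on the same strand, in Huh7 (-0.44 ± 0.09, adjusted p = 0.00174, beside 0.13 ± 0.09 in Huh1). RING1 rose in both lines (0.44 ± 0.05 and 0.24 ± 0.05, adjusted p = 1.43e-05 and 0.00194), though the call in Huh7 was lost with spike-in scaling. RXRB changed by 0.14 ± 0.05 and -0.03 ± 0.05 (adjusted p = 0.0321 and 0.707), and the rise in Huh1 turned to a fall under median scaling. RPS18 rose by 0.27 ± 0.07 in Huh7 (adjusted p = 0.0078, lost with spike-in scaling) by its brighter probe, and by 0.05 ± 0.05 with no call by the other. The 3 probes of COL11A2 disagreed. Its brightest changed by -0.40 ± 0.26 in Huh1 (adjusted p = 0.243) and by 0.85 ± 0.26 in Huh7 (adjusted p = 0.0169), where the DSF arrays were at -2.91, -1.60 and -1.54 and those at the higher values lay on the separate slide. Another, A_33_P3216442, rose by 1.05 ± 0.23 in Huh1 (adjusted p = 0.00162). The third, A_23_P42322, was at least 3.32-fold higher in Huh1 (adjusted p = 1.15e-04), where its control arrays were not well above background. In Huh7 neither of these probes was called (0.09 and 0.27). With 5-FU the neighbors' brightest probes differed from control by -0.51 to 0.47 in Huh1 and by -0.82 to 0.21 in Huh7, beside -2.84 and -4.48 for HSD17B8, and the called ones that were lower turned higher with spike-in scaling.

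Without drug, 8 of the 9 tested HSD17B genes differed between Huh7 and Huh1. In Huh7, 3 were higher (HSD17B7, HSD17B8 and HSD17B11) and 5 lower (HSD17B1, HSD17B2, HSD17B4, HSD17B6 and HSD17B10). All Huh1 control arrays lay on slide 1 and all Huh7 control arrays on slide 2, so line and slide cannot be told apart in this comparison. The share of all genes called was 77.9%, with 39.3% higher and 38.6% lower, so the count is near the background. Groups that did not overlap made up 42.2% (higher) and 42.4% (lower) of all genes, and 4 and 5 of the 9. HSD17B7 (2.38 ± 0.23) and HSD17B6 (-1.96 ± 0.17) had the largest differences of the brightest probes. The HSD17B2 call (-0.31 ± 0.11, adjusted p = 0.0237) was lost without Huh1 control replicate 1 (-0.14) or Huh7 control replicate 1 or 2, and with quantile and spike-in scaling. That of HSD17B11 (0.38 ± 0.11, adjusted p = 0.00771) was lost with median scaling. Both were lost with the slide as a block and with only the groups compared. HSD17B12 was the gene not called (0.21 ± 0.11, adjusted p = 0.0852). It was called without Huh1 control replicate 2 (0.30, adjusted p = 0.0226) or 3 (0.28, adjusted p = 0.0475) and with quantile normalization (0.39, adjusted p = 0.00382), and differed by 0.06 (not called) without replicate 1. With the slide as a block, which here rests on the single Huh1 array hybridized beside Huh7, 5 remained called. The share of all genes called in that fit was not taken either. The lines' DSF responses differed for 3 of the 9 genes, HSD17B7, HSD17B10 and HSD17B12, where 46.3% of all genes differed, 24.3% with a higher and 21.9% with a lower value in Huh7. For 5-FU, 43.6% of all genes differed between lines (23.7% higher and 19.9% lower). Members were not counted here because the 5-FU values chose the family.

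The patterns of HSD17B8 and HSD17B6 over the 18 arrays were set beside those of all other tested genes, by Pearson's r of the normalized signal. The 5 genes most like HSD17B8 were FAHD2A (r = 0.995), RPS15A (r = 0.985), RPL3 (r = 0.983), RPSAP52 (r = 0.978) and C20orf141 (r = 0.978). Their differences from control were smaller than those of HSD17B8, for FAHD2A -0.26 and -0.23 with DSF and -0.71 and -1.11 with 5-FU in Huh1 and Huh7. RPSAP52 is a pseudogene of a ribosomal protein gene, and its probe may share signal with other copies. The 5 most like HSD17B6 were RNASET2 (r = 0.983), DEF6 (r = 0.980), CYP2J2 (r = 0.976), BCAS1 (r = 0.973) and HDHD3 (r = 0.972). CYP2J2, a fatty acid epoxygenase, was at -0.72 and -0.37 from control with DSF and at 0.77 and 0.89 with 5-FU. These values describe 18 arrays in 6 groups that share cell line, drug and scaling, and rest largely on the group means, the 5-FU groups that chose the family included. After removal of group means r was 0.14 (C20orf141) to 0.80 (FAHD2A) for the genes like HSD17B8 and 0.50 (HDHD3) to 0.86 (CYP2J2) for those like HSD17B6. Between members the highest r was 0.83, for HSD17B1 with HSD17B2, and the lowest -0.94, for HSD17B1 with HSD17B8.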

How the data were processed

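The authors hybridized Cy3-labeled RNA of each sample alone to an Agilent human array and deposited scanner output per array. Its intensity values are the processed spot signal after the background correction of Feature Extraction (10.7.1.1 per the submitters' processing notes, another version in the methods). The authors also deposited a GeneSpring table whose values are, as set against the scanner files, a linear ratio of each signal to the array's 75th percentile, and its log2 served as an alternative. In it 100.0% of probes lay within 0.05 log2 of a constant offset from the spot signal. The genome build of the array annotation was used for no coordinate.

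Here log2 signal was averaged over unflagged spots and the array's 75th percentile subtracted. Of 42405 probes, 78 had no unflagged spot on some array, and 29894 of the remaining 42327 were tested, being well above background in a whole group of 3. Between 316 and 447 spots per array were flagged and 0 were saturated. RefSeq named 25736 of 27099 probes listed by accession, and 15852 of 19720 named genes were tested. Where a group had no array well above background, the fold is a bound, computed against each dim array's lowest signal well above background, or the probe's own value there if that was larger.

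All 18 arrays entered a limma 3.58.1 fit (R 4.3.3) with 6 groups. The replicate numbers do not pair samples (correlations of deviations from -0.093 to 0.103 over 45 same-number pairs). Replicates are independent experiments per the methods. The arrays lay on 3 slides. Huh1 control, Huh1 5-FU and Huh1 DSF replicates 1 and 2 shared slide 1, Huh1 DSF replicate 3, Huh7 control, Huh7 5-FU and Huh7 DSF replicate 1 slide 2, and Huh7 DSF replicates 2 and 3 slide 3. Alternatives were quantile, median and spike-in scaling (7 probes with mean log2 signal above 8), normexp (offset 50), the authors' table, other filters on dim probes, the mean over a gene's probes, only the groups compared, replicate and slide blocks, a trended robust fit and leaving out each array. Scripts used Python 3.11.15, pandas 2.3.3, numpy 2.4.6 and matplotlib 3.10.9, and the fit was tested on simulated data. The number of arrays limits the precision.

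Members and gene lists were chosen with earlier results of these data known. The named genes are all members, the called genes with the 2 largest changes per list, drug and line, other 17-beta enzymes, neighbors of HSD17B8 and the 5 genes most like HSD17B8 and HSD17B6. Some genes that it picks are left out.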

Additional observations from a re-analysis of the deposited data

Results flagged for a closer look

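The DSF response differed between Huh7 and Huh1, by the test of the difference itself (limma over all 18 arrays), for 3 of the 9 tested genes, where 46.3% of all genes differed. For HSD17B7 the response in Huh7 minus that in Huh1 was -1.23 by the brightest probe. It was -0.84 without Huh1 DSF replicate 3, whose value on this probe stands above all Huh1 control arrays. For HSD17B10 it was 0.30, and -0.02 with spike-in scaling. For HSD17B12 it was -0.47, and -0.32 without Huh1 control replicate 1. Of the Huh7 DSF arrays, 2 lay on a slide without other groups, and the part of the slide in these differences cannot be told apart from DSF for those arrays.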

How the results depend on the processing

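Of 23 calls among members, 10 were kept under all 31 alternatives, 18 of which leave out an array. They were the DSF falls of HSD17B6 in both lines, of HSD17B8 in Huh1 and of HSD17B7 in Huh7, the HSD17B7 difference between lines, and 5 baseline differences (HSD17B1, HSD17B4, HSD17B6, HSD17B7 and HSD17B10). Not all alternatives could move a call equally. The authors' table holds nearly the same values, and leaving out an array of a group not compared alters only the estimate of spread and the adjustment. With the slide as a block 3 members were called after DSF in Huh7 and 5 at baseline, and with spike-in scaling 2 were called after DSF in Huh1. With spike-ins, the 5-FU differences were 1.78 and 1.51 for HSD17B6 and -2.01 and -3.49 for HSD17B8, and with normexp -4.01 for HSD17B8 in Huh7. Leaving out arrays gave 4 to 5 members called after DSF in Huh1, 6 to 8 in Huh7, 7 to 9 at baseline and 3 to 4 for the difference. The replicate block gave 4 and 8 members called after DSF, 8 at baseline and 3 for the difference, and changed no call among these results. The share of all genes called was not taken for these alternatives, so their member counts have no background beside them.

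Values that changed sign were as follows. HSD17B7 after DSF in Huh1, 0.00 by the brightest probe, was -0.0012 in the authors' table, -0.24 as the mean over probes, -0.17 with median scaling, -0.0598 with normexp, -0.0403 with quantile normalization, -0.39 with the slide as a block (adjusted p = 0.0108) and -0.053 with it as a random block, and ranged from -0.39 to 0.20 on leaving out arrays. HSD17B10 after DSF in Huh1 was 0.0495 with spike-ins. HSD17B4 after 5-FU was 0.31 and 0.55 with spike-ins, and HSD17B12 in Huh7 0.78. Among differences between the lines' DSF responses, spike-ins gave -0.25 for HSD17B1, -0.15 for HSD17B4, -0.22 for HSD17B8, -0.0156 for HSD17B10 and -0.30 for HSD17B11. HSD17B2 was 0.0403 with median scaling and 0.0273 with the slide as a block. HSD17B1 was -0.0104 with normexp, and HSD17B11 -0.0371 with normexp, -0.0839 with quantile normalization and -0.10 to 0.18 on leaving out arrays. The cause of these changes was not tested. The planned normexp on mean signals was not run, as the spot tables used hold medians, and normexp on medians was chosen after seeing the data. Levels near background, as for HSD17B13, bound what can be measured.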
